A study of Onthophagus taurus with 66 samples.

Results

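The transcripts described here were those with the highest expression, relative to the back of the head, in both anterior regions of the dorsal head of *Onthophagus taurus*, a horned dung beetle. They numbered 51 of the 23725 transcripts in the deposited table. They were chosen by rank. Levels were taken as log2(CPM + 1), where CPM is the count scaled to a common library size, with TMM factors. They were averaged over left and right pieces and then over the animals, and each transcript was scored by the lower of its 2 anterior region means minus the higher of its 2 posterior region means. The 60 transcripts with the highest score were taken, and 12 named transcripts of developmental genes were set aside, of which 9 stood in these 60. The anterior against posterior difference of these 51 transcripts is therefore fixed by the way they were chosen, and it is given below as a description with no test.

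The samples were pieces of dorsal head epithelium from 6 males and 5 females, all pre-pupae, at the end of the larval stage. No treatment or genetic change is given for either group. Each animal was cut into 6 pieces that were sequenced as 66 separate libraries, which are the left and right lateral anterior (LatA), the medial anterior (MA), the left and right lateral posterior (LatP) and the medial posterior (MP). Horns form in the posterior head of males and not of females, and the comparison of regions and sexes asked how head regions differ in gene expression while horns form.

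The insect head is patterned by transcription factors that are switched on in bands and patches of the epidermis, and the same epidermis later secretes the cuticle. Cuticle is built from chitin and many families of structural proteins, and it is hardened and coloured by tanning, in which oxidases such as laccase cross-link catechols made from dopamine. In a pre-pupa the head epidermis has detached from the larval cuticle and is laying down that of the pupa. In bulk tissue of this kind, fewer cells of a type and less RNA per cell cannot be told apart.

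The smallest library held 10807956 counts, the median one 13246361 and the largest 17048942. Depending on the library, 3 counts equal between 0.176 and 0.278 CPM, and lower values were read as not detected. In a comparison of each library with the region means, 62 of the 66 libraries were closest to their own region. The other 4 were the left LatA library of female 2, which was closest to LatP, the MA library of female 3 and the MA library of male 1, both closest to LatA, and the right LatA library of male 1, which was closest to MA. The MA library of male 1 had the lowest mean of the 51 transcripts among all anterior libraries, 3.04 on the log2(CPM + 1) scale, against 3.11 in the highest posterior library. Counts are given below with and without these 4 libraries where they differ.

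The label of an anterior set common to both sexes was looked at in each sex alone. When the ranking was repeated in 1 sex, 19 of the 51 were in the top 60 of both sexes. The values that chose the transcripts enter the means by sex, which are therefore a description. The mean of MA was above that of MP for 51 of 51 transcripts in males and in females. The mean of LatA was above that of LatP for 51 of 51 transcripts in females and for 50 of 51 in males, where the exception, the proline-rich extensin-like XM_023063189, had a male mean difference of -0.07 on the log2(CPM + 1) scale. In males alone, XM_023064023 ranked 12581, XM_023063189 ranked 11763 and XM_023045708 ranked 2081 of all transcripts. Each of these 3 had both anterior regions above both posterior ones in 1 of 6 males and in 5 of 5 females. In females alone, anosmin-1 (XM_023046800) ranked 3367, NADPH oxidase 5 (XM_023053930) 972, XM_023059524 570 and XM_023059933 510. Both anterior regions were above both posterior ones in 2 of 5 females for anosmin-1 and in 3 of 5 for each of the others.

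Across the 51 transcripts the anterior mean exceeded the posterior mean by a median of 1.66 on the log2(CPM + 1) scale, and by 1.07 to 3.91. Both anterior regions were above both posterior regions in all 11 animals for 13 transcripts and in 10 or more animals for 27, and the lowest number was 5. No transcript separated the 33 anterior from the 33 posterior libraries without overlap (0 of 51). The last transcript inside the threshold was the unnamed XM_023060496, with a score of 0.904 and region means of 1.84 in LatA, 2.13 in MA, 0.94 in LatP and 0.88 in MP. The first one outside it was XM_023060976, with a score of 0.902 and region means of 2.82, 2.33, 1.41 and 1.43 in the same order. Of the 51, 49 are mRNAs and 2 are noncoding RNAs, and 28 are listed in the study's supplementary tables, which were drawn up for transcripts that differed between these samples. For 4 others, 1 of Sox21b, 1 of cnc and 2 of disco-related, the name is that of another transcript of the same gene.

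**Figure D1:**
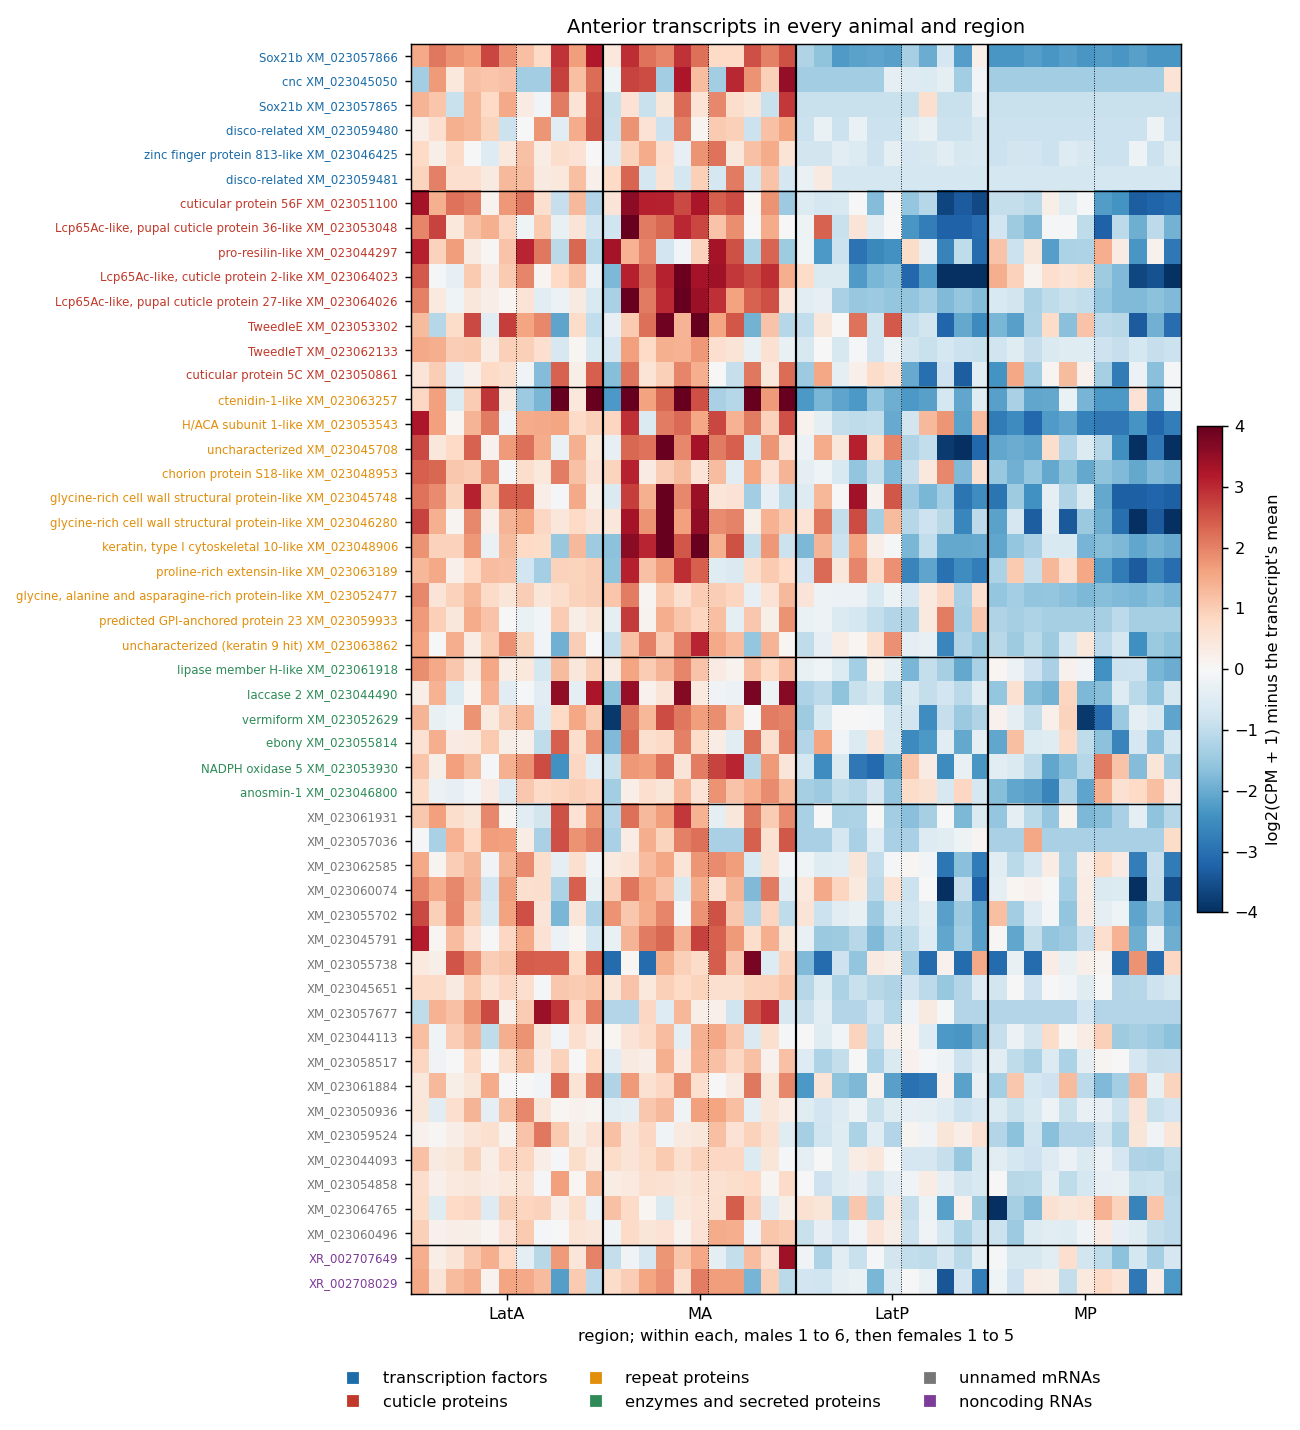
The 51 anterior transcripts (lines, grouped by role and ordered by rank within a group) in each of the 11 animals and 4 regions (columns), as log2(CPM + 1) minus the mean of the transcript. Red is above and blue below that mean, and the 2 anterior blocks on the left are mostly red, with the first column of MA, male 1, bluer than its neighbours.

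Transcription factors made up 6 of the 51 transcripts, and they came from 4 genes. Sox21b is a DNA-binding protein of the SoxB group, whose members act in the early nervous system of insects. Its main transcript, XM_023057866, ranked second of all transcripts. Animals had 7.75 to 45.1 CPM in LatA, with a median of 16.6, and 5.67 to 37.7 CPM in MA, with a median of 21.6. In LatP they had 0.039 to 4.75 CPM, with a median of 0.277, and in MP 0 to 0.119 CPM, with a median of 0. Every animal was thus higher in both anterior regions than any animal in either posterior region. The anterior mean exceeded the posterior mean by 3.91 ± 0.73 on the log2(CPM + 1) scale (SD, n = 11). No MP library held more than 2 counts of this transcript, which is under the floor of detection, whereas 1 LatP library held 146. Region accounted for 90.3% of the variance of this transcript over the 44 values of animals and regions, and the animal for 4.66%.

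The second transcript of the same gene, XM_023057865, took 14.1% of the counts of the gene. It had a median of 3.06 CPM in LatA and 1.75 CPM in MA, and ranged from 0 to 9.3 and from 0 to 12.4 CPM. It was at 0 in 9 of 11 animals in LatP and in 11 of 11 in MP. Its anterior animals overlapped the posterior ones because 1 animal in LatA and 3 in MA had no count.

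The gene cap-n-collar (cnc) encodes a bZIP factor that patterns the labral and mandibular parts of the insect head. Its transcript XM_023045050 had 0 to 16.6 CPM in LatA, with a median of 4.89, and 0 to 28.9 CPM in MA, with a median of 8.19. It had 0 to 1.43 CPM in LatP and 0 to 2.87 CPM in MP, both with a median of 0. Counts were absent from 3 animals in LatA, 2 in MA, 6 in LatP and 10 in MP, so the groups overlapped at 0. RSEM, the program that estimated the counts, divides reads between the transcripts of a gene, and this transcript took 7.03% of the counts of cnc. Transcript XM_023045049, one of the 12 set aside, took 44.9% and ranked first of all, with a mean of 46.3 ± 20.3 CPM in LatA and 54.7 ± 20.2 CPM in MA against 1.5 ± 1.79 CPM in LatP and 3.07 ± 4.03 CPM in MP (SD, n = 11). The third, XM_023045048, took 48% and lay between 21.9 and 27.2 CPM on average in the 4 regions, with a score of 0.09. Summed over the 3 transcripts, the gene had 78.8 ± 21.9 CPM in LatA, 93 ± 27.2 in MA, 23.8 ± 7.31 in LatP and 29 ± 9.58 in MP, and both anterior regions were above both posterior ones in 11 of 11 animals. The anterior excess of cnc thus lay in 2 of its 3 transcripts.

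The disco-related gene encodes a zinc finger protein of the disco family, which in Drosophila acts in the gnathal segments of the head and in the appendages. Transcript XM_023059480 had a median of 2.3 CPM in LatA and 2.51 CPM in MA, with animals from 0 to 9.12 and from 0 to 6.25 CPM. In LatP its animals ranged from 0 to 0.485 CPM and in MP from 0 to 0.548 CPM, and the animals with no count were 1 in LatA, 3 in MA, 6 in LatP and 10 in MP. Transcript XM_023059481 had 0.846 to 5.56 CPM in LatA and 0 to 7.1 CPM in MA, was at 0 in 9 of 11 animals in LatP and held no count in any MP library. The 2 were split from 6 transcripts of 1 gene, of which the one with the most counts, XM_023059484, was among the 12 set aside. The sum of the 6 had 11.1 to 30.6 CPM in LatA and 3.29 to 33.1 CPM in MA against 1.21 to 3.26 CPM in LatP and 0.3 to 6.81 CPM in MP, and it was higher in front in 11 of 11 animals.

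The last factor, XM_023046425, is a zinc finger protein to which no role is assigned. It had a median of 1.46 CPM in LatA, 2.48 in MA, 0.171 in LatP and 0.0821 in MP. Both anterior regions were above both posterior ones in 11 of 11 animals, though animals of the 4 regions overlapped, from 0.271 CPM for the lowest in LatA to 0.596 CPM for the highest in MP.

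The 12 transcripts set aside give the setting of these factors. Dichaete (XM_023057893), a second SoxB factor, had a median of 10.4 CPM in LatA and 14.3 in MA against 0.204 in LatP and 0 in MP. Its gene lay next but 1 to Sox21b in the assembly IU_Otau_3.0, with 1 gene between them. Both were near absent from MP, where no library held more than 1 count of Dichaete. Deadpan (XM_023061919), a bHLH factor of neural precursors, had medians of 21, 26.4, 3.95 and 0.87 CPM in LatA, MA, LatP and MP.

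Cuticle proteins made up 8 of the 51, and their anterior excess had a median of 2.37 on the log2(CPM + 1) scale. Cuticular protein 56F (XM_023051100), of the family with a chitin-binding domain, ranked first among them. It had 8.74 to 221 CPM in LatA, with a median of 58.6, and 7.1 to 261 CPM in MA, with a median of 133. In LatP it had 0.726 to 21.5 CPM, with a median of 9.15, and in MP 1.25 to 25.3 CPM, with a median of 9.52. Within each of the 11 animals both anterior regions were above both posterior ones, but the animals overlapped between regions, as females 3 and 5 had only 7.1 to 22.5 CPM in front. Its anterior excess was 3.1 ± 0.85 on the log2(CPM + 1) scale (SD, n = 11).

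Of the cuticle transcripts, 3 had hits to Lcp65Ac, a larval cuticle protein of Drosophila with a chitin-binding domain. XM_023064026 and XM_023064023 came from neighbouring genes with none between them. XM_023064026 had 0.366 to 86 CPM in MA, with a median of 19, and 1.21 to 12.6 CPM in LatA, with a median of 3.08. It had medians of 0.171 CPM in LatP and 0.41 CPM in MP. XM_023064023 had medians of 71.9 CPM in LatA, 324 in MA, 7.78 in LatP and 45.5 in MP. In both, MA was above LatA in 10 of 11 animals, with male 1 as the exception: XM_023064023 had 11.3 CPM in the MA of male 1 and 233 CPM in its LatA. The third, XM_023053048, had medians of 16.3 CPM in LatA, 33.5 in MA, 4.06 in LatP and 3.59 in MP, and 2 females had no count of it in LatP.

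A transcript similar to pro-resilin, the precursor of the elastic cuticle protein resilin, varied more between animals than between regions. XM_023044297 had 4.42 to 99.3 CPM in LatA, with a median of 24.6, and 3.27 to 115 CPM in MA, with a median of 29.5. It had 0.366 to 18.3 CPM in LatP, with a median of 1.36, and 0.594 to 30.7 CPM in MP, with a median of 5.34. The animal accounted for 56.9% of its variance and the region for 40.1%, and the regions overlapped between animals while both anterior regions were above both posterior ones within 11 of 11 animals.

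The others were Tweedle proteins, which lack the chitin-binding domain of the other families, and cuticular protein 5C, which has one. TweedleE (XM_023053302) had 2.18 to 92.4 CPM in LatA, 2.7 to 273 in MA, 0.505 to 73.6 in LatP and 0.358 to 28.7 in MP, with medians of 21.8, 34, 7.09 and 3.3. TweedleT (XM_023062133) had medians of 2.68, 2.06, 0.171 and 0.093 CPM in the same order. Cuticular protein 5C (XM_023050861) had medians of 473, 639, 239 and 279 CPM, and its animals overlapped throughout, from 97.2 to 1725 CPM in LatA against 32.6 to 968 CPM in LatP.

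**Figure D2:**
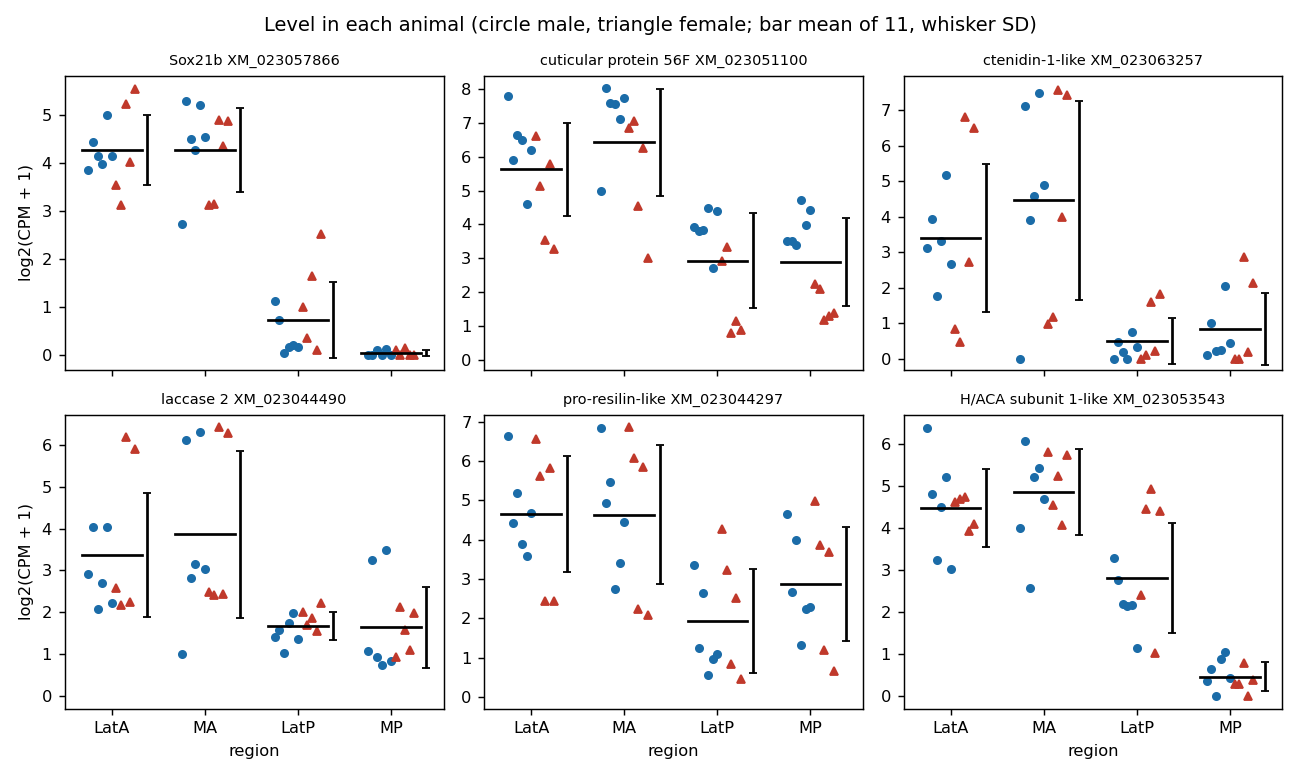
Level of 6 anterior transcripts in each animal and region, in log2(CPM + 1) of the mean of left and right pieces, with circles for the 6 males, triangles for the 5 females, a bar for the mean and a whisker for the SD of the 11 animals. Sox21b separates front and back in every animal, laccase 2 and ctenidin-1-like are high in front in only some animals, and H/ACA subunit 1-like is lowest in MP.

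Proteins of low complexity or with repeats made up 11 of the 51. Their names come from similarity to repeat proteins of other animals and plants, such as keratins, glycine-rich cell wall proteins and chorion proteins, and give no function in the beetle. The ctenidin-1-like XM_023063257, marked as taxon-restricted in the study's tables, had 0 to 189 CPM in MA, with a median of 23, and 0.387 to 111 CPM in LatA, with a median of 7.71. In LatP it had 0 to 2.55 CPM, with a median of 0.171, and in MP 0 to 6.32 CPM, with a median of 0.191. It was high in the MA of 4 animals, with 136 CPM in male 2, 178 in male 5, 189 in female 3 and 169 in female 5, and at most 28.5 CPM in the other 7.

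The uncharacterised XM_023045708 had 440 to 3258 CPM in LatA and 322 to 8144 CPM in MA against 25.4 to 4556 CPM in LatP and 1.85 to 855 CPM in MP. Its medians were 1421, 2222, 450 and 124 CPM in that order, and the animals of LatP spanned the whole range of those of LatA. A pair of transcripts similar to glycine-rich cell wall structural protein had medians of 95.1, 189, 27 and 5.73 CPM (XM_023046280) and of 26.8, 13.6, 5.74 and 0.821 CPM (XM_023045748) in LatA, MA, LatP and MP. The keratin-like XM_023048906, the second taxon-restricted transcript of the set, had medians of 6.99, 23, 1.16 and 0.218 CPM. XM_023063862, which has a hit to another keratin, had medians of 25.5, 32.9, 10.4 and 5.67 CPM, and both of its anterior regions were above both posterior ones in 10 of 11 animals.

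The enzymes and secreted proteins were 6. Laccase 2 (XM_023044490), the oxidase that tans the cuticle of beetles, had 3.24 to 71.2 CPM in LatA, with a median of 5.53, and 1.01 to 84.8 CPM in MA, with a median of 7.19. It had 1.05 to 3.67 CPM in LatP, with a median of 2.22, and 0.667 to 10.3 CPM in MP, with a median of 1.13. The excess was concentrated in the 4 animals in which ctenidin-1-like was high, which had 68.1 CPM in male 2, 78.2 in male 5, 84.8 in female 3 and 76.6 in female 5 in MA, against 1.01 to 7.92 CPM in the other 7. Ebony (XM_023055814), the enzyme that joins dopamine to beta-alanine for tanning, had 79.8 to 856 CPM in LatA, 46.9 to 761 in MA, 27 to 484 in LatP and 24.8 to 374 in MP. In MA its 4 highest animals were those same 4, at 660 to 761 CPM against 46.9 to 274 CPM in the others.

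Vermiform (XM_023052629) encodes a chitin deacetylase, which in Drosophila shapes the tracheal cuticle. Its member transcript had medians of 27.8, 51.2, 7.7 and 8.36 CPM in LatA, MA, LatP and MP, but took 0.32% of the counts of its gene. XM_023052624, with 14.8% of the counts, was also higher in front, with means of 1047, 1338, 744 and 725 CPM in that order. XM_023052611, with 75.7%, had means of 4713, 4570, 5143 and 5313 CPM. The 4 transcripts of the gene summed to 6370 ± 1430 CPM in LatA, 6570 ± 1490 in MA, 6470 ± 3500 in LatP and 6670 ± 2770 in MP (SD, n = 11), and the sum had a score of 0.04. The gene as a whole did not separate front and back, and both anterior regions exceeded both posterior ones in 3 of 11 animals.

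NADPH oxidase 5 (XM_023053930), which makes superoxide, had medians of 34.7, 52.4, 2.75 and 6.95 CPM, and the lipase member H-like XM_023061918, a lipid hydrolase by name, had 12.5, 14.4, 2.6 and 2.92 CPM. For the lipase, both anterior regions were above both posterior ones in 11 of 11 animals. Anosmin-1 (XM_023046800), an extracellular matrix protein known from neuron migration in vertebrates, had medians of 32.4, 42.9, 11.3 and 7.67 CPM, and its values are taken up again with the sexes.

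The largest group was 18 mRNAs to which no name was given. XM_023045791 is listed in the study's tables as uncharacterised, and the others are not listed there. XM_023061931 ranked highest of them, with medians of 4.73, 8.15, 0.455 and 0.435 CPM in LatA, MA, LatP and MP, and both anterior regions above both posterior ones in 11 of 11 animals. Its gene is adjacent to that of the lipase, with no gene between. The steadiest was XM_023045651, with 19.7 to 46.2 CPM in LatA, 28 to 47.6 in MA, 6.61 to 14.3 in LatP and 8.81 to 21.2 in MP. Region accounted for 85% of its variance, and only the highest MP animals, at up to 21.2 CPM, passed the lowest LatA animal, at 19.7 CPM.

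XM_023057677 belongs to a gene whose other transcripts are named troponin I, a regulator of muscle contraction. It had medians of 4.86 CPM in LatA, 1.56 in MA, 0.203 in LatP and 0 in MP, and took 14.8% of the counts of its gene. The transcript with the most counts of the gene, XM_023057673, ran the other way, with means of 4.65 and 4.9 CPM in LatA and MA against 15.3 and 17.5 CPM in LatP and MP. The 8 transcripts summed to a score of -1.41, and in 0 of 11 animals were both anterior regions above both posterior ones. A further transcript of the gene, XM_023057675, took 8.1% of the counts and was also higher in front. It had means of 2.87 and 2.77 CPM in LatA and MA against 0.75 and 0.553 CPM in LatP and MP. The anterior excess was therefore one of single transcripts and not of the gene. Over all, 10 genes of the set had other transcripts in the table, and for 4 of them the gene sum scored below the last of the 51.

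Among the other unnamed mRNAs, 5 more had both anterior regions above both posterior ones in 11 of 11 animals. XM_023062585 had medians of 35.5 CPM in LatA, 33.3 in MA, 15.8 in LatP and 13.1 in MP. XM_023060074 had 331, 287, 132 and 89.1 CPM in that order, and XM_023055702 had 8.2, 9.17, 1.77 and 2.38 CPM. These 3 shared their lowest animal, female 3, which had 53.2 CPM of XM_023060074 in LatA, 37.6 in MA, 4.28 in LatP and 4.29 in MP.

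XM_023058517 had medians of 24, 26.2, 9.62 and 8.53 CPM in LatA, MA, LatP and MP, and XM_023061884 had 114, 128, 22.4 and 48.8 CPM. For XM_023061884 the MP value was above that of LatP in every animal, although all 11 stayed below their own LatA and MA. The transcripts with the least regular pattern were XM_023064765 and XM_023057036. XM_023064765 had medians of 45.4, 39.3, 23 and 36.7 CPM, and both of its anterior regions were above both posterior ones in 5 of 11 animals, the lowest number in the set. Region accounted for 18.1% of its variance, the lowest share in the set. XM_023057036 had no count in 2 animals in LatA, 3 in MA, 5 in LatP and 9 in MP, with up to 6.22 CPM in MP, so that presence and absence overlapped in all regions.

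The remaining 8 of the unnamed mRNAs had an anterior excess of 1.07 (XM_023050936) to 2.10 (XM_023045791) on the log2(CPM + 1) scale. XM_023055738 had medians of 29 CPM in LatA, 14.6 in MA, 2.26 in LatP and 5.96 in MP and took 41.2% of the counts of its gene, whose sum scored -0.47. XM_023059524 had medians of 12.7, 13.1, 5.86 and 3.25 CPM. In its LatP, the 6 males had 2.81 to 5.86 CPM, with a median of 3.82, and the 5 females had at least 7.66 CPM and at most 13.4, so the sexes did not overlap there. In MP they overlapped, at 2 to 4.43 CPM in males and 2.94 to 12.4 CPM in females, as they did in MA. The share of all transcripts whose sexes do not overlap in LatP was not determined.

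The 2 noncoding RNAs had medians of 685, 568, 169 and 336 CPM (XR_002708029) and of 4.35, 3.71, 0.863 and 0.95 CPM (XR_002707649) in LatA, MA, LatP and MP. XR_002708029 had both anterior regions above both posterior ones in 11 of 11 animals, although the animal accounted for 66.5% of its variance and the region for 31.4%.

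The 51 transcripts also varied between animals. The median share of variance due to region was 47.7% for the 51 transcripts and 8.49% over the 11302 transcripts with a mean above 1 CPM, a difference that the choice fixes. The animal means of a transcript spanned a median range of 2.29 on the log2(CPM + 1) scale in the set, against 1.15 over those 11302. The animal accounted for a median of 30.1% of the variance of the 51 and of 48.6% over the 11302. The range was 1.5 for the transcription factors, 3.67 for the cuticle proteins and 3.71 for the repeat proteins, and it was 5.29 for TweedleE. Female 3 had the lowest animal mean for 16 of the 51 and male 2 the highest for 12. These were not the same transcripts throughout: laccase 2, ebony and ctenidin-1-like were high in females 3 and 5, in which pro-resilin-like had its 2 lowest MA values, 3.74 and 3.27 CPM, and TweedleE its 2 lowest, 2.7 and 5.22 CPM.

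The comparison of lateral with medial pieces asked whether the anterior set is even across the head. It is independent of the ranking except that taking the lower anterior and the higher posterior mean favours transcripts that are balanced. Counts of left and right pieces were added for each animal and tested with edgeR, and a transcript was called at an adjusted p under 0.05 over the 13471 transcripts tested. Between LatA and MA, 0.282% of all transcripts were called, and 1 of the 51 was. This was the Lcp65Ac-like XM_023064026, lower in LatA by a log2 fold change of -2.78 with an SE of 0.54 (adjusted p = 0.00716). The call held when any 1 animal was left out, with an adjusted p of 7.01e-05 to 0.0456. Unadjusted p was under 0.05 for 5 of the 51, all lower in LatA, and for 4.74% of all transcripts. A negative fold change was found for 38 of the 51, with a median of -0.25, while 56.2% of all transcripts had a positive one. With the animal as a block, 0.676% of all transcripts were called, and the neighbouring XM_023064023 was added, at -2.04 with an SE of 0.45 (adjusted p = 0.0197). This block call was not checked with an animal left out. Without the 4 libraries closest to another region, and no block, 2 of the 51 were called.

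Between LatP and MP, 9.80% of all transcripts were called, and 9 of the 51 were, 8 higher in LatP and 1 higher in MP. The 8 were Sox21b, 6 repeat proteins and the troponin I transcript XM_023057677. The filter counted libraries of all regions, so a transcript could pass it through its anterior libraries alone. Sox21b had a median of 0.277 CPM in LatP, near the floor of detection, and its call rests on the few animals above it. XM_023057677 was low on both sides, with means of 0.467 CPM in LatP and 0.0287 CPM in MP. The glycine, alanine and asparagine-rich XM_023052477 had the smallest adjusted p. It had 0.51 to 5.69 CPM in LatP, with a median of 2.22, and 0.0594 to 0.46 CPM in MP, with a median of 0.15. No LatP animal was as low as the highest MP animal. LatP was higher in 11 of 11 animals (adjusted p = 8.43e-11). No MP library held more than 5 counts, and the MP median was near the floor of detection, so no fold is given.

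H/ACA subunit 1-like (XM_023053543), whose name comes from a glycine-rich protein of small nucleolar RNA complexes, followed. It had 1.03 to 29.4 CPM in LatP, with a median of 4.3, and 0 to 1.07 CPM in MP, with a median of 0.297. The animals touched only at 1.03 and 1.07 CPM, and LatP was higher in 11 of 11 animals, with a log2 fold change of 4.35 and an SE of 0.57 (adjusted p = 5.25e-07). The predicted GPI-anchored protein XM_023059933 had 0 to 9.5 CPM in LatP, with a median of 0.705, and no MP library held more than 2 counts, so that no fold is given for it (adjusted p = 2.18e-05). The same holds for Sox21b, whose LatP and MP values are given above (adjusted p = 0.000114).

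Chorion protein S18-like (XM_023048953) was also higher in LatP (adjusted p = 3.95e-05), and no fold is given because its MP values had a median of 0.218 CPM and at most 5 counts in a library. The pair similar to glycine-rich cell wall protein was higher in LatP by log2 fold changes of 2.59 with an SE of 0.57 (XM_023046280) and 2.94 with an SE of 0.66 (XM_023045748). LatP was higher in 11 of 11 animals for each of these 3. The 1 transcript higher in MP was XM_023045651, by 0.5 on the log2 scale (a log2 fold change of -0.50 with an SE of 0.16, adjusted p = 0.0337), and this call was lost when any of 6 animals was left out (adjusted p up to 0.146). The call of XM_023057677 (adjusted p = 0.0411) was lost on leaving out any of 8 animals, with an adjusted p of up to 0.113. With the animal as a block, 22.1% of all transcripts were called and 16 of the 51, 10 higher in LatP and 6 higher in MP. The 6 higher in MP included pro-resilin-like, at -1.24 with an SE of 0.16 (adjusted p = 1.15e-06) and with MP above LatP in 11 of 11 animals, and XM_023064023, XR_002708029, XM_023061884, NADPH oxidase 5 and XM_023045651, and the call of XM_023057677 was lost (adjusted p = 0.0582). The block call of NADPH oxidase 5 (adjusted p = 0.0404) was lost on leaving out any of 8 animals (up to 0.112). That of XM_023064023 (adjusted p = 0.0243) was lost on leaving out any of 5 (up to 0.0774). Without the 4 libraries the counts were 10 with no block and 18 with it, and the share of all transcripts called there is not given.

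**Figure D3:**
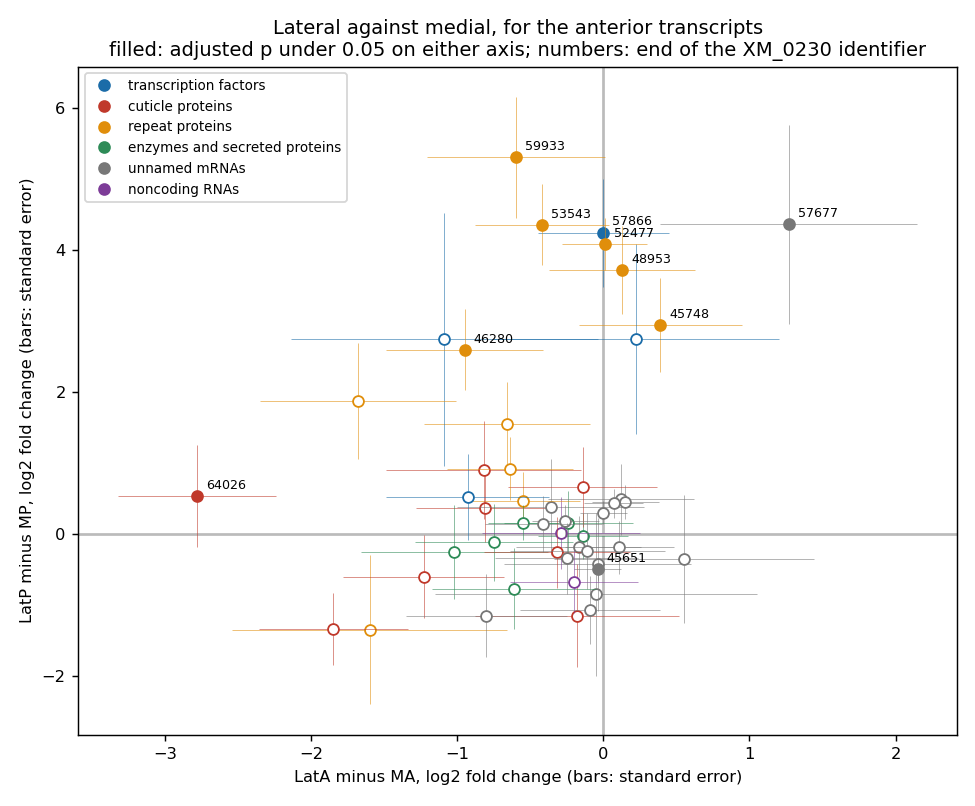
Log2 fold change of LatA over MA (horizontal) and of LatP over MP (vertical) for 49 of the 51 anterior transcripts, with standard errors as bars and colours for the groups; filled points were called on either axis. The other 2, which had no count in any MP library, have no finite standard error and are not drawn. The called repeat proteins and Sox21b lie high on the vertical axis, where the position of those near the floor of detection in MP rests on few counts, and XM_023064026 lies at the far left.

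The left and right LatA pieces were compared as a check of evenness between the sides. Of 12140 transcripts tested, 0% were called (0 by edgeR and 0 of the 51 by DESeq2, with 137 at an unadjusted p under 0.05), and none of the 51 had an unadjusted p under 0.05. With the animal as a block 0 of the 51 were called as well, and 4 had an unadjusted p under 0.05, all lower on the left. The share of all transcripts under that p in the block fit is not given, so the 4 are not read as an excess. In that fit the fold change was toward lower levels on the left for 39 of the 51, while 48.1% of all transcripts had a positive one. The left LatA library of female 2, which was closest to LatP, had a mean of the 51 of 3.15 on the log2(CPM + 1) scale. The right one had 4.03. The part of this library in the lean to the right was not tested.

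The sexes were compared within LatA and within MA, since the horn of males forms at the back of the head. Between males and females, 0.0223% of all transcripts were called in LatA and 0.0148% in MA, and 0 of the 51 were called in either (by DESeq2, 0 in LatA and 1 in MA). At an unadjusted p under 0.05 there were 2 of the 51 in LatA and 5 in MA, against 6.87% and 7.22% of all transcripts. The smallest adjusted p among the 51 was 0.495 in LatA and 0.385 in MA. Anosmin-1 was among those with an unadjusted p under 0.05 in both regions. In LatA it had 13 to 32.8 CPM in males, with a median of 16.6, and 40.8, 32.4, 35.2, 37.5 and 35.2 CPM in the 5 females. Only male 1, at 32.8 CPM, overlapped the females, and the log2 fold change of males over females was -0.86 with an SE of 0.33 (adjusted p = 0.572).

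Whether the step from front to back differs between the sexes was tested as an interaction, given as the male minus the female log2 fold change. On the lateral side 0.0520% of all transcripts were called and 0 of the 51, with 2 of the 51 called by DESeq2. Unadjusted p was under 0.05 for 13 of the 51 and for 3.89% of all transcripts. The median of the interaction over the 51 was -0.64. With the animal as a block 2.48% of all transcripts were called, mostly with the larger step in females (2.29% of all), and 8 of the 51 were, all with the larger step in females. They were 4 cuticle proteins (XM_023053048, XM_023064023, TweedleE and cuticular protein 5C), ebony, the repeat proteins XM_023045708 and XM_023063189, and the unnamed XM_023060074.

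Values of these transcripts in LatP and MP are given by sex as a description, since the sexes were not tested within these regions. The transcripts were picked because their step was called. The share of all transcripts whose sexes do not overlap within LatP or MP was not determined. XM_023064023 had 7.78 to 69 CPM in the LatP of males and 0.415 to 7.72 CPM in that of females, and 45.5 to 116 CPM in the MP of males and 1.72 to 14.7 CPM in that of females. The sexes did not overlap in either region. Cuticular protein 5C had 119 to 968 CPM in the LatP of males, with a median of 424, and 80.5, 39.8, 186, 32.6 and 239 CPM in the 5 females. Its LatA values were 260 to 653 CPM in males, with a median of 493, and 299, 97.2, 1678, 387 and 1725 CPM in females. The step from LatA to LatP was -0.57 to 0.12 on the log2(CPM + 1) scale in 5 males, 1.92 in male 1 and 1.08 to 3.55 in females, so that male 1 overlapped the females. The interaction was -2.1 with an SE of 0.51 in the block fit (adjusted p = 0.0200).

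XM_023045708 had 450 to 4556 CPM in the LatP of males, with a median of 1173, and 230, 265, 36.1, 25.4 and 58.3 CPM in females. All males were above all females there. Its LatA values overlapped, at 595 to 3258 CPM in males and 440 to 2445 CPM in females, and the interaction was -3.33 with an SE of 0.81 (adjusted p = 0.0201). The proline-rich XM_023063189 had 22.2 to 187 CPM in the LatP of males and 5.23, 8.03, 3.97, 5.94 and 4.77 CPM in females, again without overlap. It was also without overlap in MP, at 15.1 to 113 CPM in males and 2.92 to 7.42 CPM in females, and the interaction was -2.9 with an SE of 0.72 on the lateral side (adjusted p = 0.023).

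TweedleE had 5.83 to 73.6 CPM in the LatP of males, with a median of 15.1, and 6.05, 7.09, 0.505, 2.26 and 1.33 CPM in females, so that 2 females overlapped the males. Its interaction was -2.07 with an SE of 0.51 (adjusted p = 0.0206). Ebony had 71.2 to 484 CPM in the LatP of males, with a median of 131, and 27, 31.9, 120, 38.7 and 125 CPM in females, and its interaction was -1.53 with an SE of 0.41 (adjusted p = 0.0372). The medial step of ebony from MA to MP was 0.31 to 1.75 on the log2(CPM + 1) scale in males and 1.94 to 2.88 in females.

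Each of these 8 calls was lost when 1 of 7 to 9 of the 11 animals was left out. The number of calls among the 51 ranged from 0 to 13, with 0 without female 4, male 2, male 3 or male 6 and 13 without male 1. Without the 4 libraries closest to another region, 2 of which are from male 1, 11 of the 51 were called in the block fit, with an adjusted p of 8.64e-05 to 0.00941 for the 8, and 1 was called without the block. The share of all transcripts called is not given for the settings with animals or libraries left out. These counts are therefore not set against a background. The block fit rests on the same animals giving LatA and LatP, and the sign was negative in each of these settings for each of the 8.

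**Figure D4:**
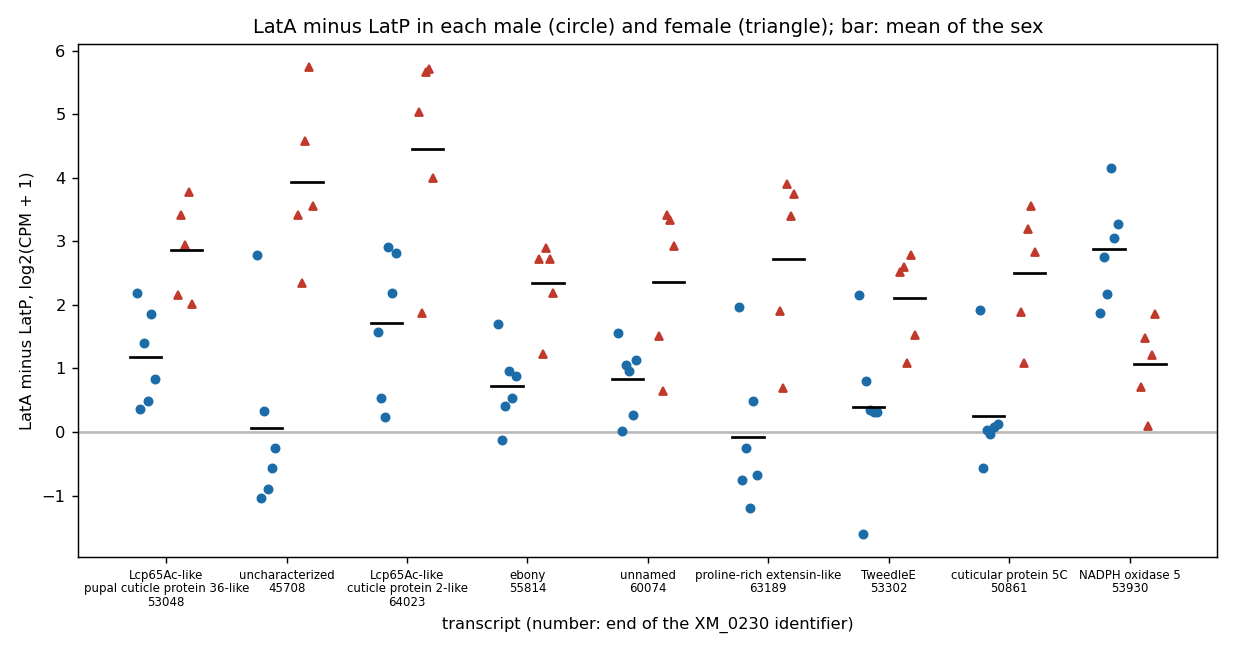
LatA minus LatP on the log2(CPM + 1) scale in each male (circles) and female (triangles), with a bar for the mean of the sex, for the 8 transcripts called in the block fit and for NADPH oxidase 5. Females lie mostly above males in the 8 with 1 male, male 1, raised in several, and in NADPH oxidase 5 all males lie above all females.

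The mean of LatA minus LatP was larger in females for 30 of the 51 transcripts and larger in males for 21. NADPH oxidase 5 was among these 21, and so ran against the transcripts called on the lateral step in the block fit. Its LatA minus LatP was 1.88 to 4.16 on the log2(CPM + 1) scale in males and 0.10 to 1.86 in females, and it was the 1 transcript of the 51 whose sexes did not overlap in this step, where 2.46% of 11302 transcripts did not overlap and 1.64% had every female above every male. The share of 1 in 51 is near that background. Its interaction in the block fit was 1.8 with an SE of 0.65 and was not called (adjusted p = 0.181).

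On the medial side 0.0148% of all transcripts were called for the interaction and 0 of the 51, with 2 of the 51 called by DESeq2. Unadjusted p was under 0.05 for 5 of the 51 and for 5.20% of all transcripts. With the animal as a block 0.290% were called, and 1 of the 51 was, anosmin-1, with the larger step in males. It had 6.5 to 48.6 CPM in the MA of males, with a median of 27.4, and 68.3, 42.9, 53.5, 72 and 46.9 CPM in females. In MP it had 2.19 to 7.67 CPM in males, with a median of 3.62, and 51.6, 29.3, 33.3, 44.2 and 24.1 CPM in females. The sexes overlapped in MA and stood well apart in MP, though the share of all transcripts without overlap in MP was not determined. The interaction was 2.04 with an SE of 0.42 (adjusted p = 0.0233). This block call was not checked with an animal left out. Male 1 stood apart in the step from MA to MP, at 0.32 on the log2(CPM + 1) scale against 2.34 to 3.12 in the other males. The step from MA to MP did not overlap between the sexes for 2 of the 51, ebony and XM_023064023, both larger in females, where 1.11% of 11302 transcripts did not overlap.

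Genes of the same pathways outside the set were counted by annotation words, with the 51 and the 12 set aside left out. The names exist only for the transcripts that the study picked from these samples as differing, so the counts are not independent evidence of a direction. Over all transcripts, 9.74% were called between front and back, 4.97% higher in front and 4.77% higher at the back. Of the Wnt pathway 2 transcripts were listed and both were called: notum, which inactivates Wnt ligands, was higher in front by a log2 fold change of 2.16 with an SE of 0.25 (adjusted p = 3.66e-08), and frizzled 4, a Wnt receptor, was higher at the back, at -1.86 with an SE of 0.16 (adjusted p = 4.22e-11). Of 25 transcripts of head patterning transcription factors tested, 8 were called higher in front and 13 higher at the back, and 4 were not called. Transcripts of 1 gene were counted separately, such as XM_023053509 and XM_023053510 of otx2, both higher at the back. Among those higher in front were a forkhead factor (XM_023059412, 5.40), pox meso (3.16), apterous (1.90) and sloppy paired 2 (1.82), and among those higher at the back were invected (-4.61), mirror (-3.61) and labial (-3.33), each as a log2 fold change.

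Outside the set, 24 transcripts with a word for cuticle proteins in any of their names were tested. Of these, 6 were called higher in front and 10 higher at the back, with a median log2 fold change of -1.38. Some also carry names of other proteins. Among those called higher at the back, XM_023046178 is also named neuropeptide-like 3 and XM_023054975 homeobox protein 4. Their summed level had medians of 2110 CPM in LatA, 383 in MA, 626 in LatP and 1840 in MP. The words for cuticle tanning found 0 transcripts beyond laccase 2 and ebony. Among markers of other tissues, 5 of 10 muscle transcripts tested were called higher at the back and 0 in front. The 5 include XM_023057670 and XM_023057671, both of the troponin I gene to which XM_023057677 belongs. The summed level of the muscle list had medians of 28 CPM in LatA, 20.6 in MA, 26.6 in LatP and 348 in MP. In the highest MA animal that sum reached 561 CPM, and MP animals ranged from 23.2 to 664 CPM. The 5 transcripts found by words for the eye summed to a median of 18.9 CPM in LatP and to under 1 CPM elsewhere (0.715 in LatA, 0.382 in MA and 0.837 in MP). They include a transient receptor potential channel A1 and a transcript with a Drosophila hit to the dopamine/ecdysteroid receptor, names that are not specific to the eye. The part of these tissues in the values of the 51 transcripts was not tested. Words for fat body and epidermis found 0 transcripts, and the tissue label was therefore not checked against epidermal markers.

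In the assembly IU_Otau_3.0, 44 of the 51 transcripts matched 42 genes. Within 10 genes of each other lay 8 pairs of genes of the set or of the 12 set aside, and 2 pairs were adjacent, the Lcp65Ac-like pair and the lipase with XM_023061931. Deadpan lay in the same stretch, with 7 genes between it and the lipase and 2 between it and XM_023061884. Midline, a T-box factor among the 12, had 1 gene between it and XM_023045651. The predicted GPI-anchored protein and chorion protein S18-like had 2 genes between them, and both were among the transcripts higher in LatP than in MP.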

How the data were processed

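RNA of 6 dorsal head pieces from each of 6 male and 5 female pre-pupae was sequenced as stranded, poly(A)-selected libraries. Per the labels and the study's methods, the authors trimmed reads with Trimmomatic 0.32, aligned them with Bowtie2 2.3.2 to the *O. taurus* gene models and estimated counts with RSEM 1.3.0. They deposited expected counts of 23725 transcripts, without normalization, and 74.3% of the values are whole numbers. Libraries hold no molecular identifiers, so the floor of 3 counts covers counting error only.

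Members were ranked on log2(TMM CPM + 1) as described above. The members and the gene lists were chosen with earlier results of these data known. For tests, both sides of a lateral region were added per animal (44 libraries), rounded to whole numbers and fitted with edgeR 4.0.16, which uses limma 3.58.1, under R 4.3.3, with TMM, sex-by-region means and the quasi-likelihood F-test, for transcripts above 1 CPM in at least 5 libraries. P-values were adjusted by Benjamini-Hochberg over all transcripts tested. Adjusted p-values are those of edgeR. Each animal gave all its pieces per the labels. Deviations from group means correlated between regions of an animal, with mean r of 0.246 to 0.334 and a lowest value of 0.119, so fits with the animal as a block are given where they change a call. Nothing in the labels tells whether animals came from separate broods. The steps were tested on simulated data.

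Values in each animal are given for the members that rank highest in each role group and for the 3 smallest adjusted p in each test among called members. Names come from the study's tables, for 4 members through another transcript of the same gene, and no table of epidermal markers or sequences was used here. The alternatives were DESeq2 1.42.0, RLE size factors, no filter beyond a summed count of 2, the block, sides as separate replicates, each sex alone, each animal left out, other thresholds, a pseudocount of 0.1 and plain library totals. Leaving out the 4 libraries closest to another region, and the leave-outs of the block fits, were chosen after seeing the data.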

Additional observations from a re-analysis of the deposited data

Results flagged for a closer look

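In 9 of 74 groups of animals, 1 animal stood apart from the rest by Dixon's criterion, which chance meets in about 1 of 20 independent groups. These groups are not independent, since the mean of all 51 transcripts holds the role groups. Steps of transcripts called for a sex difference were also included because of that call. The 9 are therefore not read as an excess over chance. Male 1 accounted for 7 of the 9. In MA, its mean of the cuticle proteins was 3.59 on the log2(CPM + 1) scale against 5.81 to 6.73 in the other males. Its mean of the enzymes and secreted proteins there was 2.63 against 5.08 to 6.1, that of the unnamed mRNAs 3.3 against 4.13 to 4.61, and that of all 51 transcripts 3.04 against 4.46 to 5.21. Its LatA minus LatP was 2.78 for XM_023045708 against -1.04 to 0.33 in the other males, and 1.92 for cuticular protein 5C (XM_023050861) against -0.57 to 0.12. Its MA minus MP was 0.32 for anosmin-1 (XM_023046800) against 2.34 to 3.12. The MA and right LatA libraries of this animal were each closest to the other anterior region. Female 1 had a mean of 3.49 for the enzymes and secreted proteins in LatP against 3 to 3.14 in the other females. Male 2 had a mean of 4.16 for the 2 noncoding RNAs in MP against 4.73 to 4.8 in the other males.

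The step from front to back differed between the sexes, by the interaction term in the fit with the animal as a block, for 9 transcripts. For the lateral step, as male minus female log2 fold change, the values were -3.84 (XM_023053048), -3.56 (XM_023064023), -3.33 (XM_023045708), -2.9 (XM_023063189), -2.1 (XM_023050861), -2.07 (XM_023053302), -1.64 (XM_023060074) and -1.53 (XM_023055814). For the medial step it was 2.04 (XM_023046800). Without the block, 0 of the 51 transcripts were called for either step. Each of the 8 calls on the lateral step was lost on leaving out any 1 of 7 to 9 of the 11 animals, and 0 were called without female 4, male 2, male 3 or male 6.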

How the results depend on the processing

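Single calls without the block were put through the alternatives. Block calls on LatP against MP and on the lateral step were refitted with an animal or the 4 libraries left out. No value among these changed direction. In these refits 377 kept their side of the threshold and 101 lost the call, most of them on the sex difference in the block fit. The block calls of XM_023064023 between LatA and MA and of anosmin-1 on the medial step were not checked in this way. The counts of called members moved as follows. They are given without the share of all transcripts called in each setting, and so are not set against a background. Between LatA and MA (1 called) 2 were called by DESeq2, with the animal as a block, with sides as separate replicates and without the 4 libraries closest to another region, 0 in males alone, in females alone and at an adjusted p under 0.001 with an absolute log2 fold change over 2, and 1 to 2 with an animal left out. Between LatP and MP (9 called) 16 were called with the block, 5 in females alone and 5 at the stricter thresholds, and 7 to 9 with an animal left out. The sex difference in LatA (0 called) gave 2 with sides as separate replicates, and that in MA (0) gave 1 by DESeq2. For the sex difference in the lateral step (0 called) DESeq2 gave 2, the block 8, separate sides 6 and the 4 libraries left out 1, and leaving out an animal 0 to 1, where the 1 was without male 1. For the medial step (0) they were 2, 1 (block) and 1 (4 libraries), and again 0 to 1, with the 1 without male 1. In the block fit the 8 calls on the lateral step ranged from 0 to 13. The Wnt list (2 called) gave 1 and the cuticle list (16) gave 5 at the stricter thresholds. Of the 51 members, 33 remained in the top 60 ranked in males alone, 34 in females alone, 36 with a pseudocount of 0.1, 45 with plain library totals and 47 to 49 with an animal left out. The causes were not tested. Transcripts with no count in MP have no finite error for LatP against MP, and at this depth a fold against MP could not be given for them.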
